A study of Homo sapiens and Homo sapiens
Mus musculus and Mus musculus with 9 samples.

Results

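The aryl hydrocarbon receptor (AHR), its partner ARNT, its repressor AHRR and its target genes CYP1A1, CYP1A2, CYP1B1 and TIPARP were followed in the RNA-Seq of human prostate cancer cells grown with mouse osteoblasts. The genes were chosen by their symbols in the deposited table, and 7 symbols gave 8 of its 41713 genes, because AHRR is listed under 2 gene IDs. The choice drew on the authors' comparison of CYP1A1 between the groups, whose values are not used here. The levels of these genes are therefore a description and were not tested.

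The study compared C4-2B, a human prostate cancer line, cultured alone (3 libraries) with its mixed co-culture with MC3T3-E1, a mouse pre-osteoblast line, at 1 human cell to 30 mouse cells (3 libraries). All cells were labelled WT and were kept in alpha-MEM with serum, and the 3 libraries of MC3T3-E1 alone are not in the table analysed here. The co-culture RNA held both species, and the authors separated the human reads in 3 pipelines, Xenome, XenofilteR and Kallisto. The table gives for each gene and pipeline 1 mean over the 6 libraries of both groups, that is, the counts divided by the size factors of DESeq2 (a normalised count), and the authors' own comparison of the groups, which was not used. No value in the table belongs to 1 named library, so no difference between the co-culture and C4-2B alone is reported. Where the text below gives values per library, these were solved from the means, and the libraries carry no label.

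AHR is a ligand-activated transcription factor that waits in the cytosol in a complex with the chaperone HSP90. With a ligand bound, it enters the nucleus, pairs with ARNT and binds DNA at the short core sequence GCGTG, the xenobiotic or dioxin response element. Its best known targets are the CYP1 enzymes, which oxidise polycyclic hydrocarbons and oestrogens. AHRR, which competes for ARNT, and TIPARP, which modifies AHR with ADP-ribose, are targets too and limit the response.

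The core is shown where it lies near the start sites of these genes, since it is the sequence through which the receptor acts. Promoters in RefSeq (GRCh38.p14, 250 bases before the start of a gene to 50 bases after it) matched 6 of the 7 genes. The letters GCGTG or, on the other strand, CACGC were found in the promoters of CYP1A1 and AHR (1 match each), in both promoters of AHRR (1 and 2 matches) and in 1 of 3 promoters of TIPARP (2 matches). ARNT and CYP1A2 had 0 matches in this window. Of all 35116 promoters in the same table, 36.5% held the core on either strand, so a match is common. Sequence further from the start sites was not searched, and whether AHR binds at any of these matches was not tested. The sequence before the start of CYP1A1 lies at chr15:74725529-74725778 on the minus strand, with the core in capitals.
CYP1A1: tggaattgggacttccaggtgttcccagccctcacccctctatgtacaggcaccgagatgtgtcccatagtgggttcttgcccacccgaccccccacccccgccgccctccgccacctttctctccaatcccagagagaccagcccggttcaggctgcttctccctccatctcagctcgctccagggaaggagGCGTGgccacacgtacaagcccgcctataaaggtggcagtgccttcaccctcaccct

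All the matches of AHRR, TIPARP and AHR are given with up to 12 bases on each side, all on the plus strand of GRCh38.p14. Both matches of TIPARP read CACGC and lie at chr3:156674370-156674398 and chr3:156674436-156674464. The windows of AHRR lie at chr5:321672-321700, chr5:322360-322379 (cut short by the start of the promoter) and chr5:322556-322584, and that of AHR lies at chr7:17298677-17298701, after the start site.
TIPARP, first: cgcgagaaaggaCACGCcccctcgcggga
TIPARP, second: cgaacgaacgcgCACGCgcgcgcaggggg
AHRR, first promoter: ggcgggcggctcGCGTGccggggtggggc
AHRR, second promoter, first match: ggcGCGTGacaggcaggggc
AHRR, second promoter, second match: gcagaagggtggGCGTGtgcgcgcgttct
AHR: tctgttccgagaGCGTGccccggac

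C4-2B markers were present in the human reads. All 8 of the listed prostate epithelial genes found in the table lay above the median protein-coding gene with Xenome, with KLK3, which encodes the prostate-specific antigen, at a mean normalised count of 51038. Of 7 osteoblast or mesenchymal genes, 1 lay above that median (COL1A1, 3384). Its mean depended on the pipeline, with 4557 for XenofilteR and 2471 for Kallisto. RUNX2, the osteoblast regulator, stood at 411 with Xenome, and ALPL and IBSP at 0.103 and 2.75.

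The receptor and its partner stood at different levels. ARNT (chromosome 1 of GRCh38, 150809713 to 150876708, minus strand) had the highest mean of the set, 3180 normalised counts with Xenome, 3180 with XenofilteR and 3172 with Kallisto. AHR (chromosome 7, 16916359 to 17346152, plus strand) had 94.6 with Xenome, 94.3 with XenofilteR and 216 with Kallisto. Per kilobase of exon (GENCODE release 44), the mean was 493 for ARNT and 11.7 for AHR with Xenome, which exceeded 78.0% and 34.2% of the protein-coding genes with a mean above 0. With Kallisto, AHR had 26.8 per kilobase.

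Among the CYP1 enzymes, the mean per kilobase with Xenome was 50.0 for CYP1B1 (chromosome 2, 38066973 to 38109902, minus strand), 32.6 for CYP1A1 (chromosome 15, 74719542 to 74725536, minus strand) and 3.99 for CYP1A2 (chromosome 15, 74748845 to 74756607, plus strand). CYP1A1 and CYP1A2 are neighbours that point away from each other. TIPARP (chromosome 3, 156673235 to 156706770, plus strand) stood above the CYP1 enzymes, with 88.8 per kilobase. In counts, the means with Xenome were 426 for TIPARP, 301 for CYP1B1, 110 for CYP1A1 and 12.5 for CYP1A2, and all 4 lay below the median protein-coding gene (517). With Kallisto the order of CYP1A1 and CYP1A2 was reversed, at 30.2 and 42.0 per kilobase. A mean over 2 groups hides any difference between them, so each order holds for the mixture of libraries only.

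**Figure D1:**
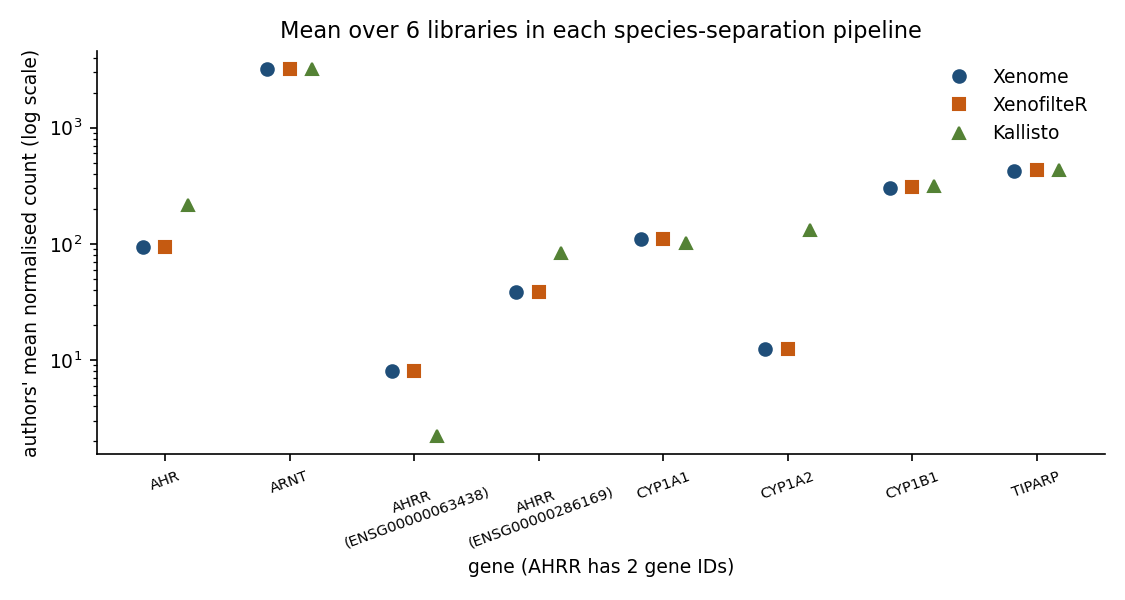
Authors' mean normalised count over 6 libraries (vertical axis, log scale) for each gene of the set and each pipeline, 1 symbol per pipeline, with no error because the means have no replicate. Xenome and XenofilteR stand level for every gene, and Kallisto stands apart for AHR, both AHRR rows and CYP1A2 (131.6 against 12.5).

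The pipelines were compared gene by gene, since each of them decides which reads count as human. Kallisto gave 0.925 times the Xenome mean for CYP1A1, 0.998 times for ARNT, 1.02 times for TIPARP and 1.04 times for CYP1B1. Across 13345 protein-coding genes with a Xenome mean of at least 10, this ratio had a median of 1.02 and lay between 0.873 and 3.19 for the genes from the 5th to the 95th percentile. CYP1A2 lay outside that range, at 132 with Kallisto against 12.5 with Xenome, or 10.5 times, a ratio higher than that of 98.5% of the genes. AHR was 2.28 times as high with Kallisto (216), within the range but above 92.5% of the genes. XenofilteR and Xenome differed little, and their largest difference in the set was that of TIPARP, 435 against 426.

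Sequence shared with other genes was measured beside these ratios, as the percent of a gene's distinct 31-base sequences (GENCODE release 44 transcripts, either strand) that recur elsewhere. CYP1A2 shared 11.8% with transcripts of 4104 other human genes, and no single one of these held more than 1.55% (TMEM59). AHR shared 37.1%, of which 29.1% of its sequences recurred in 1 overlapping gene, ENSG00000283321. That gene lies on the same strand and covers 29.5% of the exon bases of AHR, and its mean was 0.0854 with Kallisto. CYP1B1 shared 10.98%, about as much as CYP1A2, while its ratio was 1.04, and AHRR ENSG00000063438 shared 57.8% at a ratio of 0.274. ARNT shared 2.27%. CYP1A1 shared 0.802%, all of it with CYP1A2, and TIPARP 0%, against 4.72% for the median of 19874 protein-coding genes. With mouse transcripts (GENCODE release M21), TIPARP shared 3.86% and ARNT 2.93%, CYP1A1 0.887%, and AHR, CYP1A2 and CYP1B1 at most 0.274%, where the median gene had 0.502%. The part of shared sequence in the differences between pipelines was not tested.

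AHRR could not be given 1 level. The ID ENSG00000063438 (chromosome 5, 321759 to 435110) had a mean of 8.08 with Xenome and 2.22 with Kallisto, and ENSG00000286169 (271670 to 438291) had 38.5 and 83.8. The second ID is not in GENCODE release 44, where the same span belongs to PDCD6-AHRR, a joint transcript of AHRR and its upstream neighbour. In the table it also runs over PDCD6, a calcium-binding protein gene, whose mean was 502 with Xenome and 4105 with Kallisto. Reads of AHRR, of the joint transcript and of PDCD6 may thus be split in ways the table does not show, and both AHRR rows are uncertain.

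Whole reads per library were then solved from the means. A mean over 6 libraries is a sum of whole reads, each worth a fixed amount per library, and the table prints the means to 15 significant digits. For Xenome, 1 read added 0.0281, 0.0314, 0.0343, 0.391, 1.15 and 1.53 to a mean in libraries 1 to 6, which are numbered by falling size factor (5.93, 5.31, 4.86, 0.427, 0.145 and 0.109). With these amounts, the human counts came to an estimated 251 M in library 1 and 4.61 M in library 6, if all libraries had the same normalised total. Each of 300 genes drawn with means between 2 and 10 had exactly 1 solution. AHR, CYP1A2 and both AHRR rows had 1 solution in each pipeline. CYP1A1, CYP1B1 and TIPARP had several, and the pair of Xenome and XenofilteR solutions with the closest reads was taken. For CYP1A1 that pair stood far apart from the next (scores of 0.0812 and 5.29, where the score is the largest difference in any library in units of the square root of the reads plus 1), and for CYP1B1 and TIPARP it did not. ARNT was too abundant to be solved, and Kallisto's means do not consist of whole reads. Intervals below are exact 95% Poisson intervals and cover counting error only.

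CYP1A1 reads numbered 1289, 1084, 855, 2, 4 and 3 in libraries 1 to 6 with Xenome. Divided by the size factors, these were normalised counts of 218, 204 and 176 in libraries 1 to 3 and of 4.69, 27.6 and 27.6 in libraries 4 to 6. Libraries 1 to 3 stood high and libraries 4 to 6 low, without overlap. The interval of library 4 (0.568 to 16.9) and those of library 5 (7.53 to 70.7) and library 6 (5.68 to 80.5) all ended below that of library 3 (164 to 188). The gene was chosen for its difference between the groups, so these intervals describe its levels and test nothing. The XenofilteR solution differed by at most 3 reads in a library, which is no separate evidence, since the pair was taken for its closeness.

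**Figure D2:**
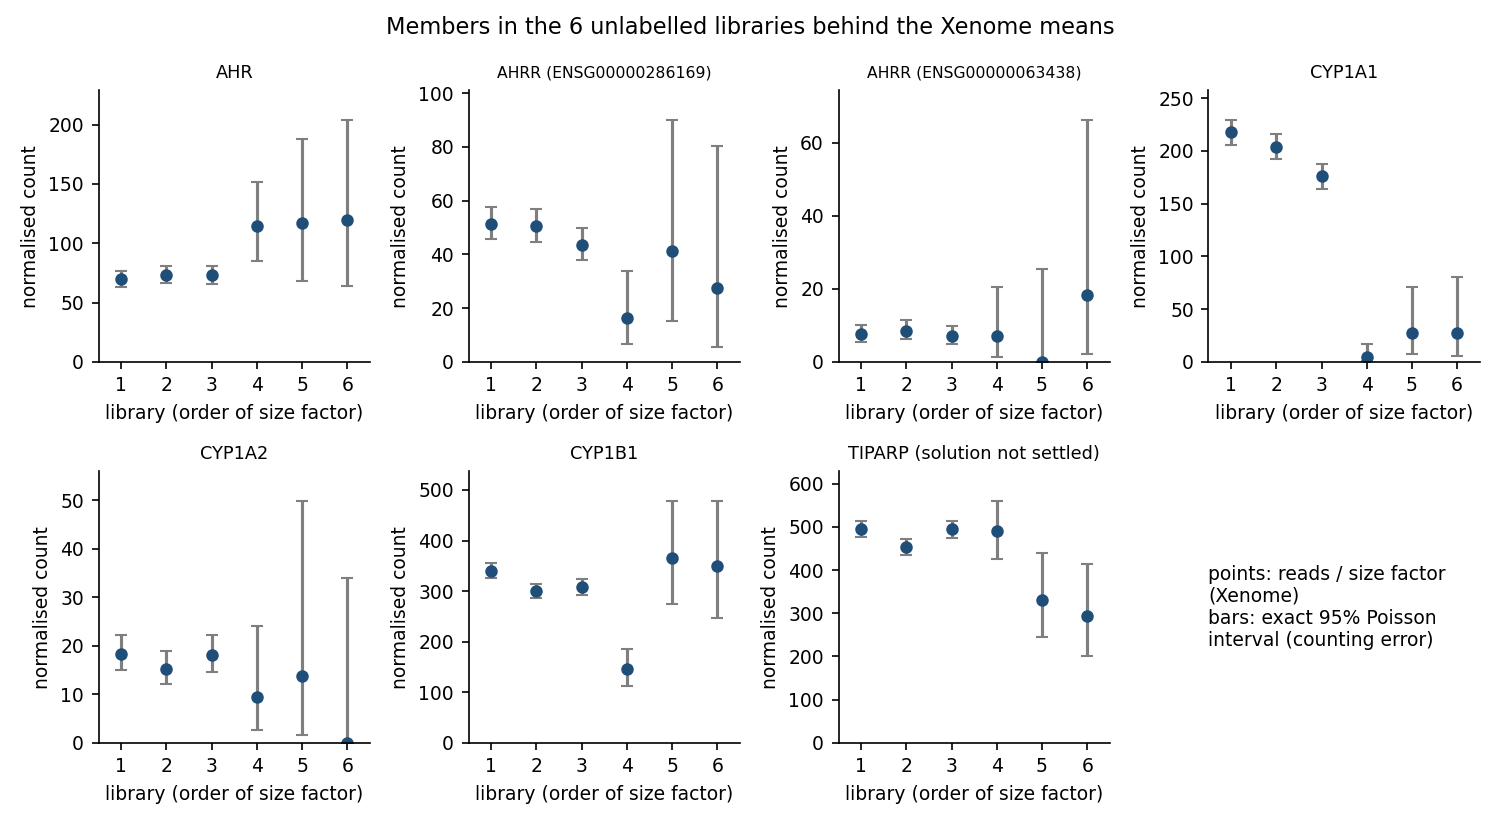
Normalised count (vertical axis, from 0, 1 panel per gene) in each of the 6 unlabelled libraries behind the Xenome means (horizontal axis, by falling size factor), with exact 95% Poisson intervals of the reads. CYP1A1 lies between 176 and 218 in libraries 1 to 3 and between 4.69 and 27.6 in libraries 4 to 6, where few reads make the intervals wide, and the TIPARP panel shows a solution that was not settled.

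AHR, by contrast, was higher in libraries 4 to 6, though by less. It had 412, 389, 355, 49, 17 and 13 reads, or normalised counts of 69.5, 73.2, 73.0, 115, 117 and 119. Only library 4 (85.0 to 152) was separate from libraries 1 to 3 by its interval, and the intervals of library 5 (68.4 to 188) and library 6 (63.6 to 204) overlapped with theirs. The highest library stood 1.72 times above the lowest.

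CYP1A2, the liver-type sister of CYP1A1, had 109, 81, 88, 4, 2 and 0 reads. The normalised counts were 18.4, 15.2 and 18.1 in libraries 1 to 3, then 9.38, 13.8 and 0. None of the 15 pairs of libraries had separate intervals. Library 4 had an interval of 2.55 to 24.0, and the 0 reads in library 6 allow up to 33.9 normalised counts.

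CYP1B1, which is found mostly outside the liver, had 2018, 1594, 1494, 62, 53 and 38 reads in the best solution. Its normalised counts were 341, 300, 307, 145, 366 and 349. Library 4 alone was low, with an interval (111 to 186) below those of all the other libraries. This order is less certain than that of CYP1A1, because a second pair of solutions with a larger difference between the pipelines (a score of 0.819 against 0.347) gave 241 in library 4 and its lowest value, 117, in library 3.

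For TIPARP, the reads per library were not settled. The best solution was 2932, 2412, 2404, 209, 48 and 32 reads, or normalised counts of 495, 454, 494, 490, 332 and 294. The next had a score of 0.879 against 0.477 and spread the same mean from 169 in library 3 to 1157 in library 2. In simulations with larger differences between the pipelines, 4 of 10 solutions accepted for TIPARP were wrong, so no library is described as high or low for this gene.

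The AHRR row with more reads, ENSG00000286169, had 305, 268, 212, 7, 6 and 3 reads and normalised counts of 51.5, 50.4, 43.6, 16.4, 41.4 and 27.6. Library 4 was again low, with an interval (6.597 to 33.8) below those of libraries 1 to 3. The other row had 45, 45, 34, 3, 0 and 2 reads, and none of its pairs of libraries was separate.

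Of the normalised counts of CYP1A1, 33.1%, 31.04% and 26.8% came from libraries 1 to 3 and 0.713%, 4.203% and 4.192% from libraries 4 to 6. Among 450 protein-coding genes with 1 solution, a mean from 5 to 10 and at least 100 reads, the 3 with shares nearest to these, by the sum of absolute differences over the 6 libraries, were SLC10A1, a bile acid transporter (21.4 percentage points), PAK6, a kinase that binds the androgen receptor (22.004), and SSTR5, a somatostatin receptor (23.0). A gene with so low a mean reaches 100 reads only through libraries 1 to 3, and these 3 genes had between 0 and 1 read in each of libraries 4 to 6. The likeness is thus a description that rests on few reads and on how the genes were picked.

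Of the 7 osteoblast or mesenchymal genes, COL1A2 and SPARC were higher in libraries 4 to 6 in their Xenome solutions. CYP1A1 was low in the same libraries. COL1A2, a chain of type I collagen, had 1, 0 and 0 reads in libraries 1 to 3 and 12, 19 and 12 in libraries 4 to 6 with Xenome. SPARC, a collagen-binding matrix protein, had normalised counts of 13.8, 18.3 and 21.4 in libraries 1 to 3 and 65.6, 138 and 174 in libraries 4 to 6. Both were solved with Xenome only. The reads of SPARC were not settled at a wider tolerance, and its mean was 72.0 with Xenome and 142 with XenofilteR. The mean of COL1A2 was 45.0 with Xenome and 264 with XenofilteR. IBSP had 31, 8, 14, 0, 1 and 0 reads in libraries 1 to 6, and BGLAP 39, 28, 19, 0, 1 and 0. ALPL had 0, 0, 3, 0, 0 and 0. Divided by the size factors, IBSP had 5.23, 1.51, 2.88, 0, 6.91 and 0. BGLAP had 6.58, 5.27, 3.91, 0, 6.91 and 0. The intervals of these genes in libraries 4 to 6 reached 8.65 or more, so no direction can be read from them. COL1A1 and RUNX2 could not be solved. With Xenome, depth, COL1A2 and CYP1A1 thus differed between the same libraries, while AHR was separate by its interval in library 4 alone. SPARC also differed between libraries 1 to 3 and 4 to 6, but in a solution that was not settled. The part of depth and of these genes in the level of CYP1A1 was not tested.

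The other genes of the pathway were described from lists. The 3 genes of the cytosolic complex reported here lay above the median protein-coding gene. HSP90AA1 and HSP90AB1, the chaperone pair that holds AHR, had 134334 and 109691 mean normalised counts with Xenome, and PTGES3, a co-chaperone, had 29184. Of the 3 relatives of ARNT, SIM2 was the most abundant (1675), and ARNT2 (79.6) and SIM1 (10.9) lay below the median.

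Further target genes of AHR fell into abundant and scarce ones, with 3 of 8 above the median. NQO1, a quinone reductase, had a mean of 5119, NFE2L2, the antioxidant regulator NRF2, 3633, and SLC7A5, an amino acid transporter, 11443. GSTA1 had 154 and GSTA2 13.3, and these near-identical glutathione transferases may share reads. ALDH3A1, an aldehyde dehydrogenase, had 8, 9, 16, 1, 0 and 0 reads in libraries 1 to 6. Its normalised counts were 1.35, 1.69, 3.29, 2.34, 0 and 0. The means were 16.4 with Xenome and 78.6 with Kallisto for UGT1A1, and 2.87 and 10.6 for UGT1A6, so both are uncertain. The UGT1A genes share most of their exons, and the part of this in the difference was not tested. UGT1A1 had 44, 155 and 199 reads in libraries 1 to 3, a spread of 7.42 to 40.9 normalised counts among libraries of similar depth.

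Tryptophan breakdown, which yields kynurenine, an AHR ligand, was described by 3 genes. TDO2 had 10 reads in all with Xenome, all in libraries 1 to 3, where its normalised counts were 0.844, 0.188 and 0.823. The 0 reads in libraries 4 to 6 allow up to 8.65, 25.5 and 33.9, so they show no difference. IDO1 had a mean with Kallisto alone (14.1). KYNU, which breaks kynurenine down, had 178, 173, 120, 15, 4 and 6 reads, or normalised counts of 30.0, 32.6, 24.7, 35.2, 27.6 and 55.1, and its mean was 34.2 with Xenome and 449 with Kallisto, 13.1 times as high.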

How the data were processed

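Stranded mRNA libraries (50 bp, paired end) of C4-2B alone and of the co-culture were processed by the authors as follows. Reads kept as human by Xenome were aligned to GRCh38 with HISAT2 and counted with featureCounts. For XenofilteR, reads were aligned with HISAT2 to GRCh38 and to the mouse genome GRCm38 first, and mouse reads were then removed from the alignments before the same counting. Kallisto quantified a joined human and mouse transcriptome. Versions and strand settings are not given in the sources used here. The authors deposited, per gene and pipeline, the mean normalised count of DESeq2 over 6 libraries, recorded here as a score. They also deposited 15 columns of their own comparison (log2 fold changes, standard errors, Wald statistics and p-values), which were not used. The table had 41734 rows, of which 21 repeated a gene ID. Columns of values per sample numbered 0, so the planned edgeR test could not be run.

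The value of 1 read in each library was found from the lowest means and refined by least squares. Smaller values for libraries 4 to 6 also explained every low mean, and the largest values that did so were taken. With smaller values, the size factors and estimated human counts of these libraries would be higher, and their normalised counts lower with narrower intervals. The same means would then take more reads in libraries 1 to 3. This alternative was not run. Whole-read solutions were enumerated within 1 unit of the 15th digit. For means up to 500 with several solutions, a pair was taken where it alone had a difference score of at most 0.5. This limit was set after the scores of CYP1B1 and TIPARP had been seen, and 90% of solvable genes with means between 20 and 60 met it. On simulated reads whose pipelines differed with an SD of 0.15 square roots of the reads, every accepted solution was right (20 of 20 for CYP1A1 and CYP1B1, 16 of 16 for TIPARP). At an SD of 0.3, 14 of 14 were right for CYP1A1, 13 of 13 for CYP1B1 and 6 of 10 for TIPARP, and the other draws gave no accepted solution. The simulated levels varied far less between libraries than the 4.69 to 218 normalised counts of the CYP1A1 solution. These draws thus do not test a solution with so few reads in libraries 4 to 6. No solved library was matched to a group. Sequence was taken from RefSeq promoters, GENCODE release 44 and release M21. The genes named were the members, listed pathway genes and markers, and the 3 genes nearest to CYP1A1, and 1 listed gene is not reported here. Members and lists were chosen with earlier results of these data known. Scripts used python 3.11.15, numpy 2.4.6, scipy 1.17.1, numba 0.67.0, pandas 2.3.3 and matplotlib 3.10.9.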

Additional observations from a re-analysis of the deposited data

How the results depend on the processing

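No paired analysis was possible, because the columns are means over both groups and the solved libraries carry no label. The 7 member rows solved into reads would allow a library to be left out, but this was not run. No other normalization or filter on counts was run either. With XenofilteR in place of Xenome, all 8 means of the members stayed within their counting error, and so did all 42 solved read counts. For the reads of CYP1A1, CYP1B1 and TIPARP this was fixed by the choice of the closest pair and says nothing of stability. The pipelines read the same libraries, so counting error is a yardstick of size here and does not measure the error between them. Kallisto moved 5 means beyond counting error, to 216 for AHR, 2.22 for AHRR ENSG00000063438, 83.8 for AHRR ENSG00000286169, 101 for CYP1A1 and 132 for CYP1A2, and 3 stayed within it. The cause was not tested. A tolerance 10 times wider gave the same 30 read counts for AHR, AHRR, CYP1A1 and CYP1A2, and was not run for CYP1B1 and TIPARP. Other limits on the difference between pipelines were chosen after seeing the data. The 95th percentile over 299 solvable genes (0.738) kept the solutions of CYP1A1, CYP1B1 and TIPARP. A limit of 1 kept 1 pair for CYP1A1 but allowed 2 for CYP1B1 and 3 for TIPARP, which then had no single solution. The next best pair moved the reads of CYP1B1 to 1703, 2488, 568 and 103 in libraries 1 to 4. It moved those of TIPARP to 1097, 6147, 824 and 84 in libraries 1 to 4 and to 64 in library 6. Ranked among all genes or among protein-coding genes with a mean of at least 10, the percentiles of the members changed, as the set ranked changed. Few reads in libraries 4 to 6 limit every value there.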
